A study of Mus musculus with 8 samples.

Results

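NMDA receptor subunit genes were examined in E15.5 mouse hippocampi from IUGR and sham control offspring. The members are 5 genes of the deposited table chosen by name, Grin1, Grin2a, Grin2b, Grin2d and Grin3a, of 16397 genes in all. Of the 7 mouse NMDA receptor subunit genes, 6 have a row in the table. Grin2c is the sixth and is given where the GluN2 genes are summed, and Grin3b was not analysed here. Each member's identifier matched a protein-coding gene of the GENCODE M21 annotation, and all 5 passed the filter on low counts, a mean of 10 or more over the 8 samples, Grin2a narrowly at 10.25.

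The study asked how hippocampal transcription differs in offspring of dams with hypertension. Wild-type C57Bl/6J dams carried a micro-osmotic pump with U-46619, a thromboxane A2 analog (IUGR group, 4 samples named T1-1, T1-3, T1-4 and T1-5), or with its vehicle alone (sham control group, 4 samples named S1-4, S1-6, S3-1 and S3-4). Surgery was common to both groups, the vehicle held ethanol, and hippocampi of both sexes were dissected, with no sex given for a sample. The labels do not say what the name prefixes stand for or which samples share a dam or how many embryos make up 1, so that p values measure the spread between these samples only and prefix and treatment cannot be told apart. Gene counts summed to 12919550 to 16672460 per IUGR sample and 11212630 to 15405750 per sham sample, ranges that overlap. Within a group no library was a repeat of another, since chi-square divided by its degrees of freedom was 29.5 or more in all 12 such pairs. Dorsal pallium markers were present in every library, with a sum of 10 genes between 1260 and 2143 CPM in a library (counts per 1000000 counts, library sizes adjusted by TMM). Of the 10, 8 had a lower and 2 a higher level in IUGR samples (median log2 fold change −0.29, beside −0.02 for all tested genes). None was called by edgeR, beside 1.46% of all tested genes, and 2 were lower at an unadjusted edgeR p under 0.05, beside 6.62%. Choroid plexus markers set the groups apart, with summed levels of 56.0 to 1313 CPM for the IUGR and 5528 to 12179 CPM for the sham libraries (12 markers, none at a count of 0). Ttr had by far the highest mean count of them, 51566 beside 1896 for Clic6, and was over the count limit of the test. All 10 tested markers were lower in IUGR samples, 8 of them without overlap of the groups, beside 5.06% of all tested genes. Their part in the results below was not tested.

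The NMDA receptor is a glutamate-gated cation channel that passes calcium when glutamate and a co-agonist bind while the membrane is depolarized. It is a tetramer in which GluN1, encoded by Grin1, is obligatory and binds glycine or D-serine. GluN2 subunits, encoded by Grin2a to Grin2d, bind glutamate and set the kinetics of the channel, and GluN3 subunits bind glycine and lower calcium permeability. In the rodent forebrain Grin2b and Grin2d are known as embryonic subunits, Grin2a as one that gains after birth, and Grin3a as one that peaks in early postnatal life. Grin2d is also known from forebrain interneurons.

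The genes are related, and the stretch that encodes the most conserved part of the channel wall, in the third transmembrane segment, is shown for the obligatory subunit and for the member with the largest difference between groups, to make plain how far apart their transcripts are. Each line gives 51 coding bases from the GENCODE M21 transcript sequence on GRCm38, 5′ to 3′ on the minus strand, and capitals mark bases that differ from Grin1.
Grin1: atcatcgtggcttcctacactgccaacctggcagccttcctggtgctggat
Grin3a: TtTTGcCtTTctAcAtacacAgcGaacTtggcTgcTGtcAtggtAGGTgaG
These stretches lie at chr2:25297187-25297237 and chr4:49770458-49770508, each within a single coding exon, and differ at 21 of the 51 bases. No word of 50 bases was shared between transcripts of any 2 of the 6 subunit genes. Words shared with other genes made up 8.24% of those of Grin1, led by the antisense gene Grin1os, 11.6% of those of Grin2a, led by the processed pseudogene Gm7328, 7.57% of those of Grin2d, all with the antisense gene Gm45441, 0.543% of those of Grin2b and none of those of Grin3a. The strand setting used for counting is not given in the sources used here, so although the library kit marks strand, reads of Grin1, Grin2d and their antisense partners may not have been separated, and the counts of Grin2a are uncertain for the pseudogene.

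In both groups Grin2b carried the most counts of the members, Grin1 and Grin3a followed (Grin3a ahead in the IUGR and Grin1 in the sham group), and Grin2d and Grin2a were near the floor of detection. The IUGR mean was above the sham mean for all 5 genes, and 44.5% of all tested genes had a log2 fold change above 0. None of the 5 was called by edgeR's quasi-likelihood test, where a call needs an adjusted p no larger than 0.05 together with a 2-fold difference. That test called 1.46% of the 13707 protein-coding genes tested, 0.102% as higher and 1.36% as lower in IUGR samples. At an unadjusted p under 0.05 by edgeR, 3 of 5 members were higher (Grin1, Grin2b and Grin3a) and 0 lower. Of all tested genes 11.1% had such a p, made up of 4.46% of all tested genes as higher and 6.62% as lower. No member had groups that did not overlap, as 2.08% of all genes had in the higher and 5.06% in the lower direction. DESeq2's Wald test called 1 member, Grin3a, and 0.613% of all genes as higher, and limma-voom called no member and 328 of all tested genes, 24 of them higher.

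**Figure D1:**
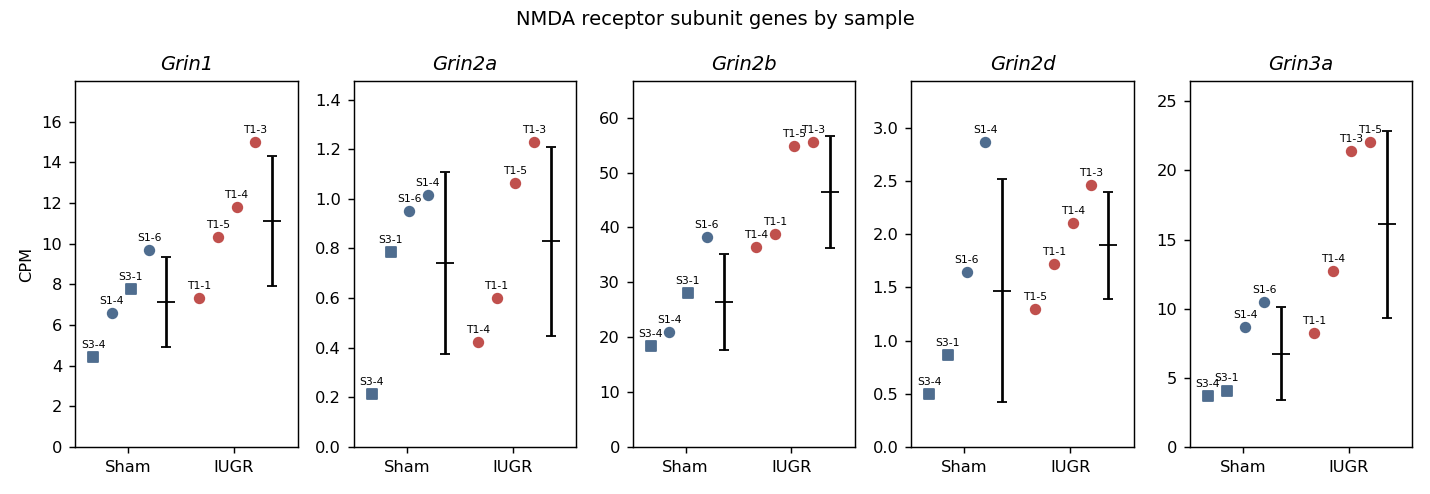
CPM of each member in the 4 sham (blue) and 4 IUGR (red) hippocampi, with a separate linear axis from 0 for each gene; points carry the sample names, squares are sham samples of prefix S3, and black bars give the mean and SD (n = 4). T1-3 and T1-5 stand highest for Grin2b and Grin3a, at 54.8 to 55.6 CPM and 21.4 to 22.1 CPM, and S3-4 stands lowest for all 5 genes.

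Grin1 (chromosome 2, 25291181 to 25319187) encodes the obligatory subunit. Its level was 7.34, 15, 11.8 and 10.3 CPM in T1-1, T1-3, T1-4 and T1-5, and 6.56, 9.70, 7.77 and 4.42 CPM in S1-4, S1-6, S3-1 and S3-4. Of the IUGR samples, 3 were above every sham sample, while T1-1 fell among the sham values and the groups therefore overlapped. The IUGR mean of 11.1 ± 3.18 CPM stood against a sham mean of 7.11 ± 2.21 CPM (SD, 4 samples each). The log2 fold change was 0.65 (standard error 0.29, 95% interval 0.01 to 1.29), and the edgeR adjusted p of 0.443 over all tested genes was not past the threshold. The exact two-sided permutation test on log2 CPM gave p = 0.0857, where 4 against 4 allow no p under 0.0286.

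Grin2b (chromosome 6, 135713233 to 136173511) encodes GluN2B, the main GluN2 subunit of the embryonic forebrain. Its level was 38.8, 55.6, 36.4 and 54.8 CPM in T1-1, T1-3, T1-4 and T1-5. In S1-4, S1-6, S3-1 and S3-4 it was 21, 38.2, 28 and 18.5 CPM. S1-6 was the only sham sample inside the IUGR range, above T1-4 and just under T1-1, and 3 of the 4 sham samples lay below every IUGR sample. The IUGR mean was 46.4 ± 10.2 CPM and the sham mean 26.4 ± 8.82 CPM (SD, 4 samples each). On the log2 scale the difference was 0.81 (standard error 0.24, 95% interval 0.27 to 1.35, edgeR adjusted p = 0.164). The exact permutation p was 0.0571. With single samples left out the log2 fold change lay between 0.67 (without S3-4) and 1.08 (without S1-6), and the edgeR adjusted p between 0.0511 and 0.393. With DESeq2's Wald test on all 8 samples the adjusted p was 0.0289 at a log2 fold change of 0.84, under the fold criterion, where 1.21% of all genes were higher at such an adjusted p.

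Grin3a (chromosome 4, 49661611 to 49845744) encodes GluN3A, a glycine-binding subunit. It had the largest difference of the members. Its level was 8.24, 21.4, 12.7 and 22.1 CPM in T1-1, T1-3, T1-4 and T1-5, and 8.69, 10.5, 4.08 and 3.71 CPM in S1-4, S1-6, S3-1 and S3-4. T1-1 lay below both S1 samples, and the other three IUGR samples lay above every sham sample. The IUGR mean was 16.1 ± 6.75 CPM and the sham mean 6.74 ± 3.37 CPM (SD, 4 samples each). The 2.40-fold difference (log2 fold change 1.26, standard error 0.41, 95% interval 0.36 to 2.17) had an edgeR adjusted p of 0.210 and an exact permutation p of 0.0857. It ranked 181 of 13707 genes by log2 fold change, and 2.41% of tested genes were 2-fold higher or more. DESeq2's Wald test called it with an adjusted p of 0.0474, as it did 3.1% of tested genes in either direction.

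Grin2d (chromosome 7, 45831883 to 45878378) encodes GluN2D, a subunit of slow channels with weak magnesium block. A sample gave only 7 to 40 counts of it. The level was 1.72, 2.46, 2.11 and 1.29 CPM in T1-1, T1-3, T1-4 and T1-5, and 2.87, 1.64, 0.86 and 0.50 CPM in S1-4, S1-6, S3-1 and S3-4. The highest and the lowest of the 8 values were both sham, and the IUGR samples fell between them. The log2 fold change of 0.39 (standard error 0.50, 95% interval −0.71 to 1.49, edgeR adjusted p = 1.00) has an interval that covers 0, from 0.613-fold to 2.81-fold.

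Grin2a (chromosome 16, 9567898 to 9995560) encodes GluN2A, known as the mature partner of GluN1. With 3 to 20 counts per sample it was the lowest member in every library. The level was 0.60, 1.23, 0.42 and 1.06 CPM in T1-1, T1-3, T1-4 and T1-5, and 1.02, 0.95, 0.78 and 0.21 CPM in S1-4, S1-6, S3-1 and S3-4. The groups overlapped, with T1-3 and T1-5 above every sham sample and S3-4 below every IUGR sample. The log2 fold change was 0.20 (standard error 0.52, 95% interval −0.96 to 1.36), an interval from 0.512-fold to 2.57-fold that covers a fall as well as a rise.

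The size of the differences depended on which sham samples were used. Against the S1 samples alone the log2 fold changes were 0.45 for Grin1, −0.23 for Grin2a, 0.65 for Grin2b, −0.24 for Grin2d and 0.75 for Grin3a. Against the S3 samples alone they were 0.90, 0.78, 1.03, 1.5 and 2.07 in the same order. All 5 genes were thus higher in IUGR than in the S3 samples, and Grin2a and Grin2d were lower in IUGR than in the S1 samples. Neither set of sham samples gave a member past the threshold, and of all 13707 genes they gave 0 (S1) and 2 (S3), and edgeR adjusted p values ranged from 0.133 to 1.00 over both. The mean level of Grin3a was 9.58 CPM in the S1 and 3.89 CPM in the S3 samples, and that of Grin2d 2.26 and 0.68 CPM. There were 2 sham samples of each prefix, and no test was made between the prefixes.

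**Figure D2:**
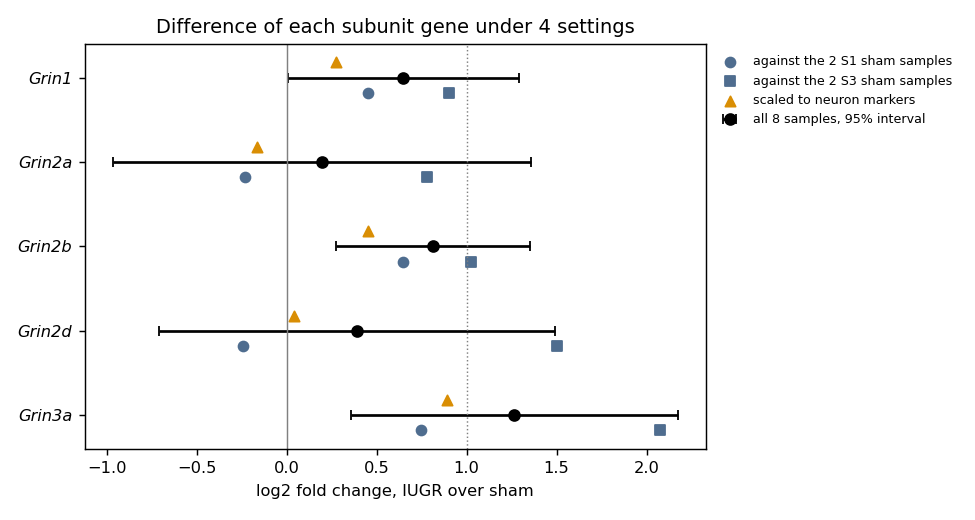
Log2 fold change (IUGR over sham) of each member. Black points with bars give edgeR's estimate and 95% interval from all 8 samples, blue circles and squares the estimate against only the S1 or only the S3 sham samples, and orange triangles the estimate with libraries scaled to neuron markers; the dotted line marks the fold criterion. The S3 estimate is above the S1 estimate for each gene, 2.07 against 0.75 for Grin3a.

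Genes of different length can be compared only per length, and counts per exonic kilobase (CPM per kb of the union of annotated exons) were used for the make-up of the receptor. In sham hippocampi the mean order was Grin2b at 1.06 ± 0.36, Grin1 at 0.73 ± 0.23, Grin3a at 0.55 ± 0.27, Grin2c at 0.35 ± 0.07, Grin2d at 0.22 ± 0.16 and Grin2a at 0.041 ± 0.020 CPM per kb (SD, n = 4). The ranges of neighbours from Grin2b to Grin2d in this order overlapped over the sham samples, although Grin2b was above Grin1 within each of the 8 libraries, and Grin2a lay below every other subunit gene in each library. In IUGR hippocampi Grin2b was again first at 1.87 ± 0.41 CPM per kb, and Grin3a, at 1.31 ± 0.55, stood above Grin1 at 1.15 ± 0.33, within their spread. The order at the top rests on the length used. With the longest transcript in place of all exons, Grin1 came first in both groups, at 1.66 ± 0.52 in sham and 2.60 ± 0.74 CPM per kb in IUGR hippocampi, and Grin2b had 1.10 ± 0.37 and 1.93 ± 0.42. On that length Grin3a, at 2.15 ± 0.90, also stood above Grin2b in the IUGR group.

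Of the GluN2 sum per exonic kilobase, Grin2b made up 60.5%, 73.0%, 75.6% and 81.7% in T1-1, T1-3, T1-4 and T1-5. In S1-4, S1-6, S3-1 and S3-4 it made up 48.7%, 71.0%, 72.0% and 59.9%. Grin2b was the largest share in every library, and the groups overlapped, with means of 72.7 ± 8.91% for IUGR and 62.9 ± 11% for sham samples (SD, 4 samples each). With coding length in place of exons these means were 89.7% and 84.8%, and those of Grin2c and Grin2d fell to 4.47% and 4.26% in IUGR and to 7.46% and 5.39% in sham samples. Grin2d ranged from 6.04% in S3-4 to 24.8% in S1-4, a spread within the sham group that held the whole IUGR range of 7.19% to 16.3%. Grin2a made up at most 3.27% of the sum per exonic kilobase and at most 3.78% with the other lengths or with none. Grin2c, which in the adult is best known from cerebellum, took 6.90% to 28.2% in IUGR and 15.1% to 33.1% in sham hippocampi from 8 to 49 counts per sample, and its log2 fold change was 0.10 (standard error 0.47). The shares are a description and were not tested.

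**Figure D3:**
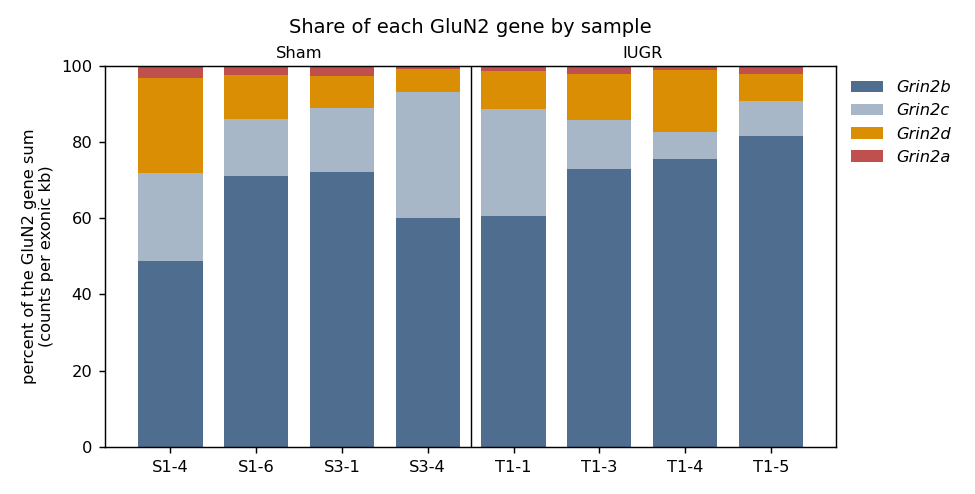
Percent of the GluN2 gene sum (counts per exonic kilobase) that each of Grin2b, Grin2c, Grin2d and Grin2a took in each sham (left) and IUGR (right) hippocampus; bars add up to the whole. Grin2b is the largest part of every bar, from 48.7% in S1-4 to 81.7% in T1-5.

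Measured against the obligatory subunit, the GluN2 sum was 2.38 ± 0.79 times Grin1 in IUGR and 2.35 ± 0.35 times Grin1 in sham samples (SD, 4 samples each). These ratios per exonic kilobase overlapped, and the difference of the means was 0.03. The ratio itself rests on the length used, with means of 3.21 and 2.91 for coding length and 1.11 and 1.10 for the longest transcript. The ratio of Grin2b to Grin1 was 1.2 to 2.07 in IUGR and 1.25 to 1.63 in sham hippocampi, with T1-1 and T1-5 above every sham sample and T1-4 below every one. Grin3a was 0.85 to 1.69 times Grin1 in IUGR and 0.42 to 1.05 times Grin1 in sham hippocampi. T1-5 had the highest ratio and both S3 samples the lowest ones. The groups overlapped for each of these ratios.

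General neuron markers were higher in the same IUGR libraries. All 14 markers, among them Snap25, Syt1 and Map2, had log2 fold changes above 0, with a median of 0.46, as did all 5 members, where 44.5% of all tested genes were above 0 and their median was −0.02. By edgeR none was called and 7 of 14 were higher at an unadjusted p under 0.05, beside 1.46% and 4.46% of all tested genes. The markers summed to 5642 to 5991 CPM per IUGR sample, all above the sham samples at 4104 to 5047 CPM. With equal weight for each marker, as mean log2 CPM, the samples lay at 6.92 to 7.41 (IUGR) and 6.48 to 6.92 (sham). T1-1 and S1-6 were thus level. Of the 14 single markers, 2 (Map2 and Syt1) had higher IUGR values without overlap, beside 2.08% of all tested genes. In bulk tissue more neurons and more of these transcripts per neuron cannot be told apart. When the libraries were scaled to the neuron markers alone, the median of all tested genes moved to −0.38, and the log2 fold changes of the members were 0.27 for Grin1 (edgeR adjusted p = 0.392), −0.16 for Grin2a (0.797), 0.45 for Grin2b (0.146), 0.04 for Grin2d (0.947) and 0.89 for Grin3a (0.112). On that scale 4.75% of all genes were called, none of them a member, 4 of 5 members had a log2 fold change above 0 beside 10.6% of all genes, and Grin3a alone had an unadjusted edgeR p under 0.05, as 1.12% of all genes had in the higher direction.

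Interneuron markers did not separate the groups. Of 10 markers, 9 were above 0 and none was called or reached an unadjusted p under 0.05, their median being 0.23 on the log2 scale. Their sums overlapped, from 495 to 1093 CPM among IUGR and from 441 to 1027 CPM among sham samples. Within the sham group these sums were 1027 CPM in S1-4, 849.3 CPM in S1-6, 441 CPM in S3-1 and 483 CPM in S3-4. S1-4 thus had the highest interneuron sum and the highest Grin2d level of the sham samples, and the S3 samples the lowest of both. In the IUGR group T1-3 had the lowest interneuron sum and the highest Grin2d level. The part of the markers in the member values was not tested. Of 8 neural stem cell markers, 3 were above 0 and none was called (median −0.16).

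**Figure D4:**
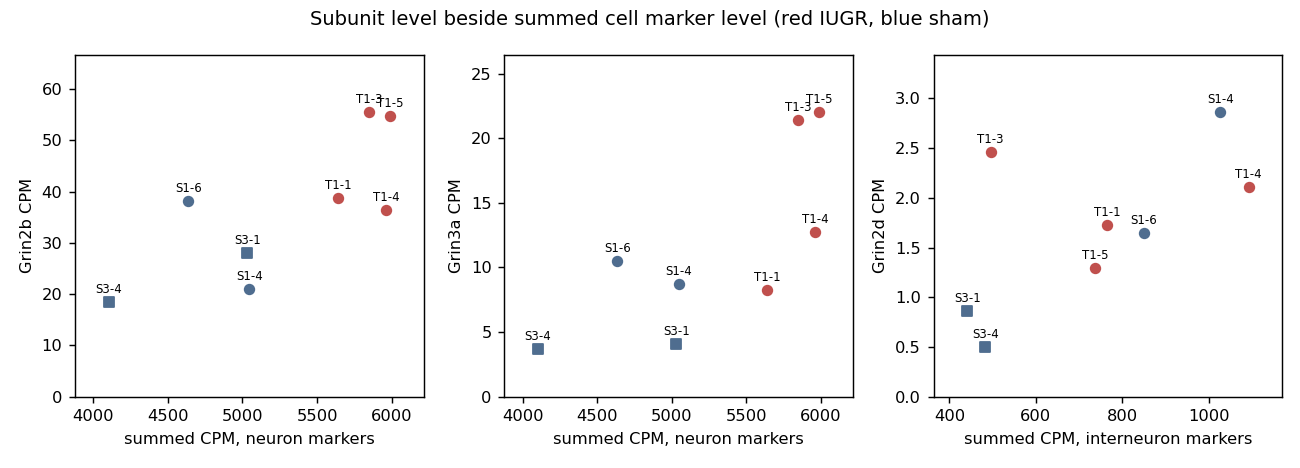
CPM of Grin2b and Grin3a beside the summed CPM of 14 neuron markers, and of Grin2d beside the summed CPM of 10 interneuron markers, in the 8 hippocampi (IUGR red, sham blue, squares for prefix S3); the horizontal axes do not start at 0. The neuron sums of the IUGR samples, from 5642 to 5991 CPM, lie above all sham sums, and for Grin2d T1-3 stands away from the other samples.

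Other genes of the receptor's machinery were listed by role, 56 genes in 6 lists, of which 52 were tested. In the IUGR group 31 had a higher and 21 a lower level, the median on the log2 scale was 0.05, and edgeR called 1 gene, beside the 1.46% of all tested genes. DESeq2's Wald test called 2 (Lin7a and Ptpn5), beside 3.1% of all tested genes. The median of the 5 members was 0.65. At an unadjusted p under 0.05 by edgeR, 7 of the 52 partner genes were higher and 1 was lower, beside 4.46% and 6.62% of all tested genes.

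The gene called by edgeR was Lin7a, of the transport list. It encodes a PDZ protein of the complex with Cask and Apba1 that has been tied to the movement of GluN2B on Kif17. Lin7a rose to a mean of 36.9 ± 7.41 CPM among IUGR samples, against 12.1 ± 3.5 CPM among sham samples (SD, 4 samples each), and every IUGR sample (28.2 to 43.3 CPM) lay above every sham sample (7.06 to 14.7 CPM). The rise was 3.06-fold (log2 fold change 1.61, standard error 0.25, edgeR adjusted p = 0.0155). Groups did not overlap in the higher direction for 2.08% of all tested genes. Lin7a was not called without S1-4 or with either prefix of sham samples alone, where its log2 fold change was 1.65, 1.45 (S1) and 1.83 (S3), and in those 3 fits the calls over all genes numbered 41 (0 of them higher), 0 and 2. The most abundant genes of this list, Lin7c and Exoc4, had log2 fold changes of −0.05 and −0.15, and of its 8 tested genes 5 were higher and 3 lower. Of the complex named above, Apba1 and Cask had log2 fold changes of 0.46 and 0.31 and Kif17 one of −0.74, none of them called by edgeR, and these 3 were named after their values were seen.

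Among postsynaptic scaffold genes, 7 of 15 were higher and 8 lower, none was called and the median on the log2 scale was −0.03. Dlg2, which encodes PSD-93, a membrane scaffold that binds GluN2 tails, was the only scaffold gene whose groups did not overlap, with 39.7 to 66.2 CPM among IUGR and 24.6 to 34.9 CPM among sham samples (log2 fold change 0.75, standard error 0.19, edgeR adjusted p = 0.103). Across all tested genes, 2.08% had groups that did not overlap in the higher direction. The most abundant scaffold genes, Homer1 and Dlg1, had log2 fold changes of −0.05 and −0.16.

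Of 13 kinase, phosphatase and calcium effector genes, 10 were higher and 3 lower, and the median on the log2 scale was 0.17. None was called by edgeR, beside 1.46% of all tested genes, and DESeq2's Wald test called Ptpn5, beside 3.1%. The groups did not overlap for Ptpn5, which encodes the STEP phosphatase that acts on GluN2B (26.2 to 59.2 CPM for IUGR against 16.0 to 25.3 CPM for sham, log2 fold change 0.97, edgeR adjusted p = 0.0993). They did not overlap for Rasgrf1 either, a calcium-responsive exchange factor for Ras (log2 fold change 1.33, standard error 0.40, edgeR adjusted p = 0.164). In the higher direction, 2.08% of all tested genes had groups that did not overlap. Fyn, a kinase of GluN2 tails, and Ephb2, a receptor that associates with GluN1, were the most abundant, with log2 fold changes of 0.17 and −0.11.

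Of the co-agonist list 3 genes were tested, and none had an unadjusted p under 0.05 by edgeR. Srr, which makes D-serine, averaged 41.8 ± 4.13 CPM in IUGR and 40.7 ± 1.43 CPM in sham samples (log2 fold change 0.04, 95% interval −0.23 to 0.31). Slc1a4, a carrier of serine and other neutral amino acids, had a log2 fold change of −0.06, and Slc6a9, the third gene, had 0.02. In the separate glutamate list Slc1a3, for glial uptake of glutamate, had 0.14. Slc1a2, which encodes the other main glial glutamate transporter, was the only gene of the glutamate list that was higher at an unadjusted p under 0.05, a choice made after its values were seen (168 ± 54.8 CPM in IUGR and 103 ± 42.9 CPM in sham samples, log2 fold change 0.70, edgeR adjusted p = 0.384). The lower gene at an unadjusted p under 0.05, named after its values were seen, was Slc17a8, a vesicular glutamate transporter gene with a mean count of 12.4 and a log2 fold change of −1.84 (standard error 0.58, edgeR adjusted p = 0.190). Of 7 such glutamate genes, 5 were higher and 2 lower. Of 6 transcription regulators tied to subunit genes, 2 were higher and 4 lower and none had an unadjusted p under 0.05. Sin3a, among the most abundant of them, had a log2 fold change of −0.04.

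**Figure D5:**
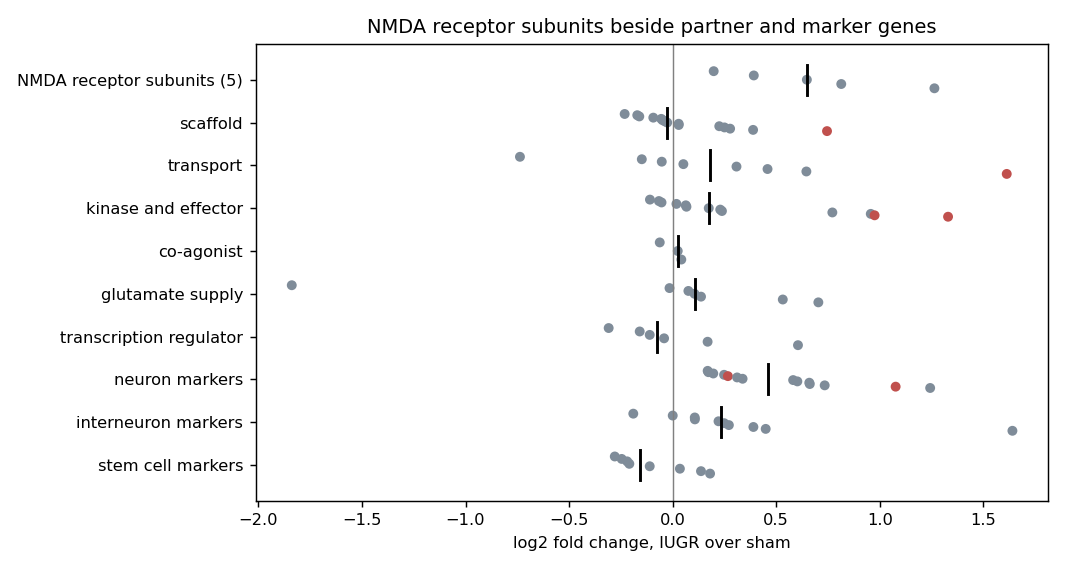
Log2 fold change (IUGR over sham) of the 5 members, of the tested genes of the 6 partner lists and of 3 marker lists; each point is a gene, red where the 4 IUGR and 4 sham values do not overlap, and black lines are medians. The members' median is 0.65, the neuron markers' 0.46 and the scaffold genes' −0.03.

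The genes whose levels moved most like a member from sample to sample were found by Pearson's r of log2 CPM over the 8 samples after the group means were removed, among the 10872 tested genes whose counts averaged 100 or more. These are the extremes of many comparisons over few samples and a description only. Grin2b was closest to Galnt9 (r = 0.99), Psd (0.95) and Gnaz (0.94). Grin3a was closest to Cpeb3 (0.99), Nalcn, a sodium leak channel gene (0.99), and Lgr4 (0.97). Grin1 was closest to Gm21983 (0.99), Speg (0.97) and Vstm2l (0.97), but with the group means kept r was −0.16 for Gm21983 and 0.31 for Speg, whose log2 fold changes of −0.64 and −0.37 had the sign opposite to that of Grin1. Grin2d was closest to Abat, which encodes GABA transaminase (0.98), Tspoap1 (0.95) and Magi2 (0.93), and Grin2a, at a few counts per sample, to Reps2 (0.98), Nell1 (0.95) and Btbd11 (0.95). With the group means kept r was 0.66 for Tspoap1 and 0.67 for Nell1, and 0.78 or more for Abat, Magi2, Reps2 and Btbd11. Tspoap1, Magi2 and Btbd11 had log2 fold changes of −0.13, −0.006 and −0.12, opposite in sign to those of their members. No gene was named for more than 1 member.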

How the data were processed

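Total RNA of E15.5 hippocampi (4 IUGR, 4 sham control) was depleted of ribosomal RNA and sequenced as single reads. The authors aligned reads to GRCm38 (mm10), and the submitters' processing notes name Novoalign 2.8; the counting program, annotation release and strand setting are not given in the sources used here. The authors deposited raw counts per gene, 1 column per sample, and every gene listed reached a count of 10 in some sample. Groups were taken from the treatment labels.

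Identifiers were matched to GENCODE M21 (16124 of 16397), and the test took the 13707 protein-coding genes whose counts averaged 10 or more but less than 50000. The comparison used edgeR 4.0.16 under R 4.3.3 (TMM, quasi-likelihood test, Benjamini-Hochberg adjustment over all tested genes). Standard errors are those implied by the F statistic. Log2 CPM used a prior count of 2. Member levels were also compared between the IUGR and sham samples, 1 gene at a time, by the exact permutation test, two-sided (scipy 1.17.1). Scripts were tested on simulated data. Alternatives were DESeq2 1.42.0, limma-voom (limma 3.58.1), other size factors, filters and samples. The members and lists were chosen with earlier results of these data known. Genes named were the members, partner genes that were called, did not overlap or were the 2 most abundant of a list, and the 3 genes closest to each member. Some items that this rule names are not reported here. Lists were postsynaptic scaffold, transport, kinase and effector, co-agonist, glutamate supply and transcription regulator genes, and neuron, interneuron, stem cell, choroid plexus and pallium markers. Sequences and exon lengths came from GENCODE M21.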

Additional observations from a re-analysis of the deposited data

How the results depend on the processing

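Over up to 20 alternatives per gene, Grin1, Grin2b and Grin3a had a log2 fold change above 0 in all 20, with ranges of 0.27 to 0.90, 0.45 to 1.08 and 0.75 to 2.07, and edgeR, DESeq2 or limma adjusted p values from 0.249 to 0.964, 0.0289 to 0.690 and 0.0474 to 0.827. No member was called except with DESeq2's Wald test, which called 1, Grin3a, at 1.28. Grin2a reversed to −0.16 with neuron marker factors, which lowered every member by 0.35 to 0.37 and the median of all genes to −0.38, and to −0.23 against the S1 sham samples, and Grin2d to −0.24 against the S1 samples. When single samples were left out, 0 members were called, Grin1 ranged from 0.47 (without S3-4) to 0.87 (without S1-6), Grin2a from −0.12 to 0.41 with values below 0 without T1-3 or S3-4, Grin2b from 0.67 to 1.08, Grin2d from 0.09 to 0.96 and Grin3a from 1.06 to 1.6. Called partner genes numbered 1, and 2 with DESeq2 (Lin7a and Ptpn5) or neuron marker factors (Lin7a, and Slc17a8 as lower), 0 against the S1 or the S3 sham samples alone, and 0 (without S1-4) to 2 (without T1-5) with a sample left out. Without T1-1 and T1-4, the IUGR samples with the lowest choroid plexus sums, an alternative chosen after seeing the data, 0 members and 2 partner genes (Lin7a and Dlg2) were called, and Grin3a, Grin2b and Grin1 had 1.70, 1.06 and 0.84; these 2 samples were also the lowest of the IUGR group for Grin2b and Grin3a, so that leaving them out had to raise both. The mean Grin2b share of the GluN2 sum moved from 72.7% (IUGR) and 62.9% (sham) to 89.7% and 84.8% with coding length and to 90.8% and 86.3% with no length scaling, and ranged from 69.7% to 76.7% and from 59.9% to 67.7% with a sample left out. Exact permutation p values on CPM kept their side of 0.05. The filter of a mean count of at least 50 gave no value for Grin2a and Grin2d. No paired analysis was possible because the labels give no replicate numbers that tie IUGR to sham samples. The cause of these changes was not tested.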
